A study of Rattus norvegicus with 8 samples.

Results

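In a count table of 32623 genes of the rat dorsal root ganglion (DRG), 65 genes above a minimum level were at least doubled after chronic constriction injury (CCI) of the sciatic nerve in males and in females alike, with no overlap between injured and naïve rats of either sex. After 11 of them were set aside by name, 54 remained, which are described here as the members. Among them 12 have a gene symbol here, and they are genes of quite different kinds. Serpina3n is a secreted inhibitor of serine proteases, Ecel1 a peptidase of the neuronal membrane, Flrt3 a membrane protein with leucine-rich repeats that acts in neurite growth, and Stmn4 a tubulin-binding protein. Several of the others are best known outside the nervous system, such as Crisp3 of exocrine glands, Cldn4 of epithelial tight junctions, Tgm1 of the epidermis and Pde6b of rod photoreceptors. After CCI most members were expressed at a higher level in females than in males. This difference passed the test for 5 members, while 1 member passed it in the opposite direction. With 2 rats per group, these 6 calls depended on the libraries and on the fit. Only 2 were made in a fit over all 8 libraries, and 1 with the replicate number as a block.

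The genes were chosen by their own values. Counts were divided by the column total and scaled to CPM, the count that a gene would have in a library of a fixed size, and a gene was taken when its mean over all libraries was at least 1 CPM, when the mean of the CCI rats was at least 2 times that of the naïve rats in each sex, and when the lowest CCI value lay above the highest naïve value in each sex. Of the 14200 genes at the minimum level, 149 doubled without overlap in males (1.05%) and 179 in females (1.26%). Both conditions were met by 65 genes (0.458%), which is 43.6% of those doubled in males and 36.3% of those doubled in females. Of these, 11 were set aside by name, among them Atf3, Gal, Vip, Reg3b and Bdnf, and 54 remained. Without male naïve replicate 2 the same rule gave 93 genes, and with a minimum of 2 CPM it gave 35. Fold changes after CCI and the separation of CCI from naïve rats are therefore a description of these libraries and carry no test. At the edge of the fold criterion, the smaller of the folds in the 2 sexes was 2.05, 2.05 and 2.06 for the 3 members just inside, and 1.99, 1.99 and 1.98 for the 3 genes just outside, all without a symbol. The nearest genes with a symbol that missed it were Tmc2, with a fold of 11.8 in males and 1.92 in females, and Gadd45a, with 1.89 in males and 2.23 in females.

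Each library holds the RNA of 1 adult Sprague Dawley rat, taken from its pooled L4 to L6 DRGs on the side of the injury (the ipsilateral side). Male and female rats were either naïve or had CCI, which makes 4 groups of 2 rats. In CCI, ligatures are tied loosely around the sciatic nerve, and the ganglia that hold its sensory cell bodies were taken on day 14. The controls were naïve and not sham-operated, so the response to surgery is part of every difference between CCI and naïve rats. Total counts were 39489103 to 60818457 per library, so that 1 count is worth between 0.0164 and 0.0253 CPM. The sequencing was done in more than 1 batch, and the batch of each library is not given in the sources used here, so a batch cannot be told apart from the groups. Of the marker genes of sensory neurons, 6 of 14 have an identifier, all 6 were detected in every library, and their summed level was 6685 to 11024 CPM.

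When a peripheral axon is cut or constricted, the sensory neuron in the ganglion switches on a programme of growth-associated and stress-response genes, which includes transcription factors, neuropeptides, cytoskeletal proteins and secreted factors. Satellite glial cells and macrophages around the cell body respond as well, and both can express immune and tissue-remodelling genes. The RNA of a whole ganglion mixes these cells, so a higher level of a transcript per cell and more cells that carry it cannot be told apart here.

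The largest increases among the members with a symbol were in genes that are nearly silent in the naïve ganglion. In 7 of the 12, the mean was under 1 CPM in naïve males and in naïve females, and 23 of the 54 members were under 1 CPM in every naïve library. A gene this low in naïve rats could reach the minimum mean of 1 CPM only through its CCI values. A low naïve level and a large fold therefore go together in part by the rule. The smaller of the folds in the 2 sexes was 2 to 3 in 31 members, 3 to 10 in 11 and 10 or more in 12. Its median was 9.74 for members with a symbol and 2.75 for the 42 without one. The symbols come from lists of genes that were called on these same libraries, so the members with a symbol were partly picked by their change. Some of these lists are of genes that differed between the sexes, so the named members were also partly picked for a sex difference. The plot of the named members by library shows each value.

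**Figure D1:**
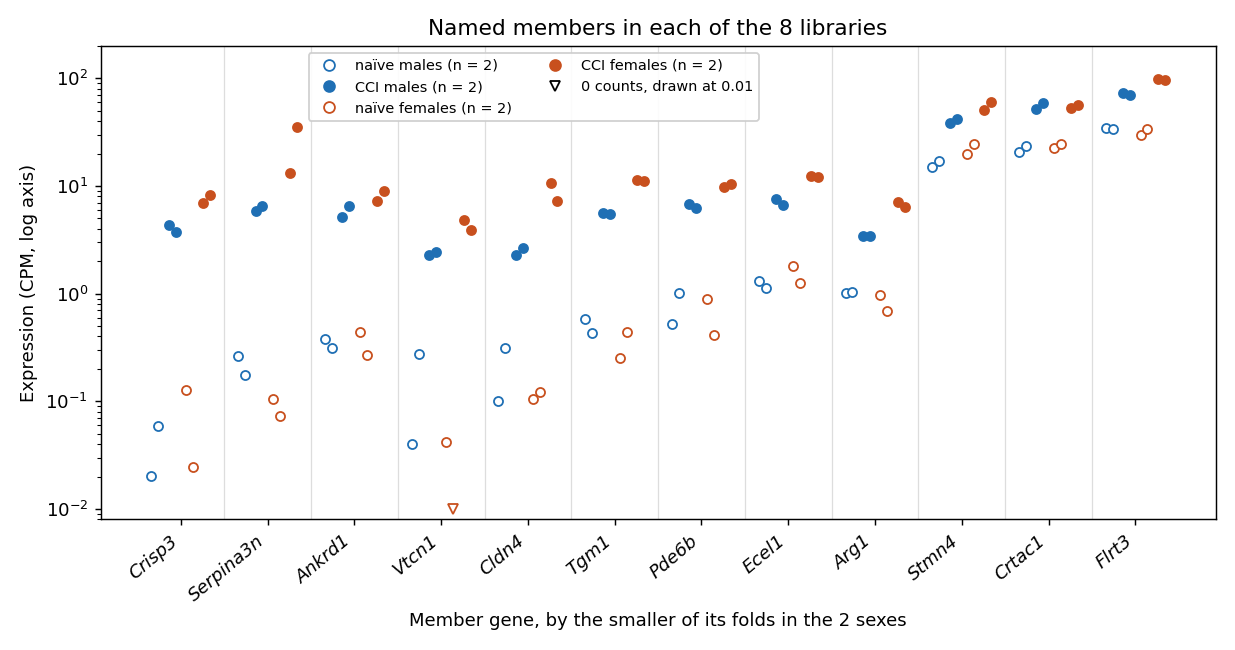
Expression of the 12 members with a symbol in each of the 8 libraries, in CPM on a log axis, ordered by the smaller of the folds in the 2 sexes; open points are naïve rats, filled points CCI rats, blue points males and orange points females. Every filled point lies above the open points of its sex, as the choice of members requires. In 11 of the 12 genes both CCI females lie above both CCI males, and the same held for 26 of the 42 members without a symbol.

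Among the genes of proteolysis and its control, Serpina3n (ENSRNOG00000010478) was at 0.261 and 0.176 CPM in the naïve males and at 5.90 and 6.52 CPM in the CCI males. In females it was at 0.105 and 0.0732 CPM in the naïve rats and at 13.2 and 35.6 CPM in the CCI rats. The mean went from 0.218 ± 0.0598 to 6.21 ± 0.440 CPM in males (SD, n = 2), 28.5-fold, and from 0.0892 ± 0.0226 to 24.4 ± 15.9 CPM in females, 274-fold. Both CCI females were above both CCI males, but they differed from each other 2.7-fold, far more than the CCI males did. It was 1 of only 2 members whose 2 CCI females differed more than 2-fold, and the other was ENSRNOG00000058906, which has no symbol and is named because its values stood out. Its CCI females were at 1.19 and 4.68 CPM, so the same rat was the higher one for both genes. Serpina3n belongs to a family of closely related genes, and how reads shared with its relatives were counted is not given in the sources used here, so its level is uncertain to that extent.

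Ecel1 (ENSRNOG00000019447), a metallopeptidase of neurons that is known to be induced by nerve damage, was at 1.32 and 1.13 CPM in the naïve males and 7.55 and 6.70 CPM in the CCI males. The naïve females were at 1.81 and 1.24 CPM and the CCI females at 12.4 and 12.0 CPM. The fold was 5.80 in males and 7.98 in females. The 2 CCI rats of a sex were close to each other and the groups were well apart, with the lowest CCI value 5.07 times the highest naïve value in males and 6.64 times in females.

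Crisp3 (ENSRNOG00000013496), a cysteine-rich secretory protein of exocrine glands and of neutrophil granules, had at most 6 counts in any naïve library. It was at 0.0201 and 0.0587 CPM in the naïve males and 4.36 and 3.70 CPM in the CCI males. In females the naïve rats were at 0.126 and 0.0244 CPM and the CCI rats at 6.94 and 8.23 CPM. The fold was 102 in males and 101 in females, but with so few naïve counts the 95% counting interval was 39.8 to 378 in males and 46.4 to 240 in females (exact, for counting error only). Of the neutrophil markers, 2 of 7 have an identifier, Ngp and Np4, and their summed level was 0.120 to 3.68 CPM in naïve males, 0.340 to 0.378 after CCI, and 5.28 to 10.4 CPM in naïve females and 0.608 to 1.02 after CCI. After CCI the neutrophil markers were higher in females than in males, as Crisp3 was, and they were below the naïve females. Their part in the Crisp3 values was not tested.

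Tgm1 (ENSRNOG00000020136), a transglutaminase that cross-links proteins of the epidermal envelope, was at 0.582 and 0.430 CPM in the naïve males and 5.57 and 5.52 CPM in the CCI males. Levels in females were 0.252 and 0.439 CPM without injury and 11.5 and 11.1 CPM after CCI. The fold was 11.0 in males and 32.7 in females, and the CCI rats of each sex were almost equal, at 1.01-fold and 1.03-fold of one another.

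Arg1 (ENSRNOG00000013304), which splits arginine into ornithine and urea and is made by macrophages as well as by injured neurons, was at 1.02 and 1.04 CPM in the naïve males and 3.40 and 3.44 CPM in the CCI males. The naïve females were at 0.968 and 0.683 CPM and the CCI females at 7.17 and 6.43 CPM. The fold was 3.32 in males and 8.24 in females. The only macrophage marker with an identifier, Cd163, was at 2.19 to 2.29 CPM in naïve and 1.48 to 1.84 in CCI males, and at 3.62 to 5.41 in naïve and 5.60 to 5.68 in CCI females. Cd163 was thus higher in the females of either condition, and its part in the Arg1 difference was not tested.

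Pde6b (ENSRNOG00000000065), the beta subunit of the phosphodiesterase that breaks down cyclic GMP in rod photoreceptors, was at 0.521 and 1.02 CPM in the naïve males and 6.81 and 6.30 CPM in the CCI males. In females the naïve rats were at 0.884 and 0.415 CPM and the CCI rats at 9.85 and 10.5 CPM. The fold was 8.52 in males and 15.7 in females. The naïve rats of a sex differed from each other more than the means of the naïve sexes did, whereas the CCI rats of a sex differed by 1.08-fold and 1.06-fold.

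Ankrd1 (ENSRNOG00000018598) encodes an ankyrin-repeat protein of the nucleus and sarcomere that is known as a stress-response gene of muscle. It was at 0.381 and 0.313 CPM in the naïve males and 5.15 and 6.48 CPM in the CCI males. Levels in females were 0.442 and 0.268 CPM without injury and 7.32 and 8.97 CPM after CCI. The fold was 16.8 in males and 22.9 in females. Of the muscle markers, 5 of 15 have an identifier. Their summed level was 35.6 to 45.8 CPM in naïve males and 79.1 to 86.5 in CCI males, but 30.4 to 47.4 in naïve females and 23.9 to 24.8 in CCI females. The part of muscle RNA in the Ankrd1 values was not tested.

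Among membrane proteins, Vtcn1 (ENSRNOG00000015279), also called B7-H4, an inhibitory ligand of T cells, was at 0.0401 and 0.274 CPM in the naïve males and 2.29 and 2.42 CPM in the CCI males. In females it was at 0.0421 and 0 CPM in the naïve rats and at 4.79 and 3.87 CPM in the CCI rats. In males the fold was 15. In females it was 206, on 2 naïve counts in all, which leaves a counting interval of 52.6 to 1586. The only marker of T and B cells with an identifier, Cd79b, was at 0.0802 to 1.45 CPM in naïve males and 0.329 to 0.440 in CCI males, and at 2.73 to 2.80 in naïve females and 0.101 to 0.439 in CCI females.

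Cldn4 (ENSRNOG00000001476), a claudin of epithelial tight junctions, was at 0.10 and 0.313 CPM in the naïve males and 2.30 and 2.68 CPM in the CCI males. The naïve females were at 0.105 and 0.122 CPM and the CCI females at 10.6 and 7.28 CPM. The fold was 12.1 in males and 78.7 in females. Both CCI females were thus well above both CCI males, and the CCI females differed from each other 1.45-fold. No other epithelial marker on the list has an identifier, so a share of epithelial cells was not tested.

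Flrt3 (ENSRNOG00000004874) was already well expressed in naïve ganglia, at 34.3 and 34.2 CPM in the males and 30.0 and 34.0 CPM in the females. In the CCI rats it was at 72.5 and 70.1 CPM in males and at 98.3 and 96.1 CPM in females. The mean went from 34.2 ± 0.0625 to 71.3 ± 1.71 CPM in males (SD, n = 2), 2.08-fold, and from 32.0 ± 2.84 to 97.2 ± 1.55 CPM in females, 3.03-fold. Both naïve females were below both naïve males, 1 of them only just, and the naïve log2FC of females minus males was -0.03 (SE 0.0803). Both CCI females were above both CCI males.

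Of the remaining named genes, Stmn4 (ENSRNOG00000053334), a stathmin that binds tubulin and is expressed in neurons, was at 15 and 17.2 CPM in the naïve males and 38.4 and 42.4 CPM in the CCI males. In females the naïve rats were at 19.7 and 24.3 CPM and the CCI rats at 50.5 and 60.3 CPM. The fold was 2.51 in males and 2.52 in females, and the females were the higher sex before as well as after injury. Crtac1 (ENSRNOG00000015220), a secreted matrix protein whose neural form is known to bind the Nogo receptor, was at 20.8 and 23.7 CPM in the naïve males and 52.2 and 58.6 CPM in the CCI males. Levels in females were 22.7 and 24.4 CPM without injury and 52.9 and 56.4 CPM after CCI. With a fold of 2.49 in males and 2.32 in females, Crtac1 is the named gene in which the sexes overlapped in both conditions.

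The bases just before the transcription start are shown for 3 of these genes, which hold a match to the AP-1 or the STAT motif. Both are motifs of injury-responsive factors, as is C/EBP, which was also matched in Flrt3, not shown here. RefSeq promoter entries on the assembly GRCr8 were found by symbol for 8 of the 12 named members, and Ankrd1, Cldn4, Arg1 and Stmn4 have none in the table used. The counts were made on rn6, so these coordinates are given for the sequences only. Each line runs 5′ to 3′ over the 250 bases before the start, and capitals mark a motif match. The Vtcn1 bases lie at chr2:190941974-190942223 (plus strand), those of Pde6b at chr14:1511436-1511685 (minus strand) and those of Serpina3n at chr6:129088142-129088391 (plus strand).
Vtcn1: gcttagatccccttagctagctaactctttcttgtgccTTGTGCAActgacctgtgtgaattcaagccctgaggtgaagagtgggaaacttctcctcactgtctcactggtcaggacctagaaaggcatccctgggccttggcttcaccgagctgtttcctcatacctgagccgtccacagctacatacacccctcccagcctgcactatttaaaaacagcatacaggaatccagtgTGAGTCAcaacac
Pde6b: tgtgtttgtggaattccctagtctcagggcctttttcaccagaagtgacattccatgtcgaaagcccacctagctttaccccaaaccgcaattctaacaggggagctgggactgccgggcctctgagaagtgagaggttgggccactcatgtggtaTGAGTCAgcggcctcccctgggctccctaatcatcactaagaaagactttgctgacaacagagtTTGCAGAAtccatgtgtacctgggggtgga
Serpina3n: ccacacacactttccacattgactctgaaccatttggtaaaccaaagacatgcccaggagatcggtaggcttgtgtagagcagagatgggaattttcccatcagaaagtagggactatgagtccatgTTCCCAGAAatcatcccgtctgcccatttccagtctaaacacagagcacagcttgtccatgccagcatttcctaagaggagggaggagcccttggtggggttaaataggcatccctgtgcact
The AP-1 motif, spelled TGANTCA, was found in Vtcn1, 13 to 7 bases before the start, and in Pde6b, 94 to 88 bases before it, each time as TGAGTCA. It occurs in 6.34% of all 33469 windows of the same length. The C/EBP motif, spelled TTGCNNAA, was found in Vtcn1, Pde6b and Flrt3 and in 9.22% of all windows. The STAT motif, spelled TTCNNNGAA, was found in Serpina3n alone of the 8, 123 to 115 bases before the start, and in 7.67% of all windows. Crtac1 held a TATA box, spelled TATAAA (12.9% of all windows), and Crtac1 and Tgm1 held a GC box, spelled GGGCGG (30.5%). The cyclic AMP response element TGACGTCA (1.59%), the EGR motif GCGTGGGCG (0.478%), the SOX motif ACAAAG (16.3%) and the E-box CACGTG (5.59%) were in none of the 8 windows. Both strands were searched for all 9 motifs. A match describes these letters and shows no binding.

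The 42 members without a symbol also ran from genes just over the fold limit to genes with almost no naïve counts. Their fold went from 2.05 upward in males, with a median of 2.95, and from 2.06 upward in females, with a median of 3.13. Many were low, with mean levels from 1.03 to 40.8 CPM and only 4 of 20 CPM or more, and 22 of all 54 members stayed under 5 CPM in every library. By the smaller of the folds in the 2 sexes, the first member was ENSRNOG00000021029. It was at 0 and 0.0196 CPM in the naïve males and 1.94 and 2.24 CPM in the CCI males. The naïve females were at 0.0210 and 0 CPM and the CCI females at 3.14 and 3.05 CPM. With 1 naïve count in each sex, the fold was 214 in males (counting interval 37.3 to 8316) and 294 in females (48.7 to 10855). It was therefore silent or nearly so in every naïve rat and well counted in every CCI rat.

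The next by the same measure was ENSRNOG00000001338, at 0 and 0.0196 CPM in the naïve males and 1.78 and 1.30 CPM in the CCI males. In females the naïve rats were at 0 and 0.0488 CPM and the CCI rats at 2.66 and 3.17 CPM. The fold was 157 in males (counting interval 27.9 to 6264) and 119 in females (35.4 to 1073). Of the same kind, ENSRNOG00000024028, named after its values were seen, had no count in either naïve female. It was at 3.11 and 2.46 CPM in the CCI females, at least 82.1-fold higher against a floor of 3 counts over the 2 naïve females, and the lower end of its counting interval was 66.2. In males it had 3 naïve counts and a fold of 60.7 (counting interval 19.9 to 288).

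**Figure D2:**
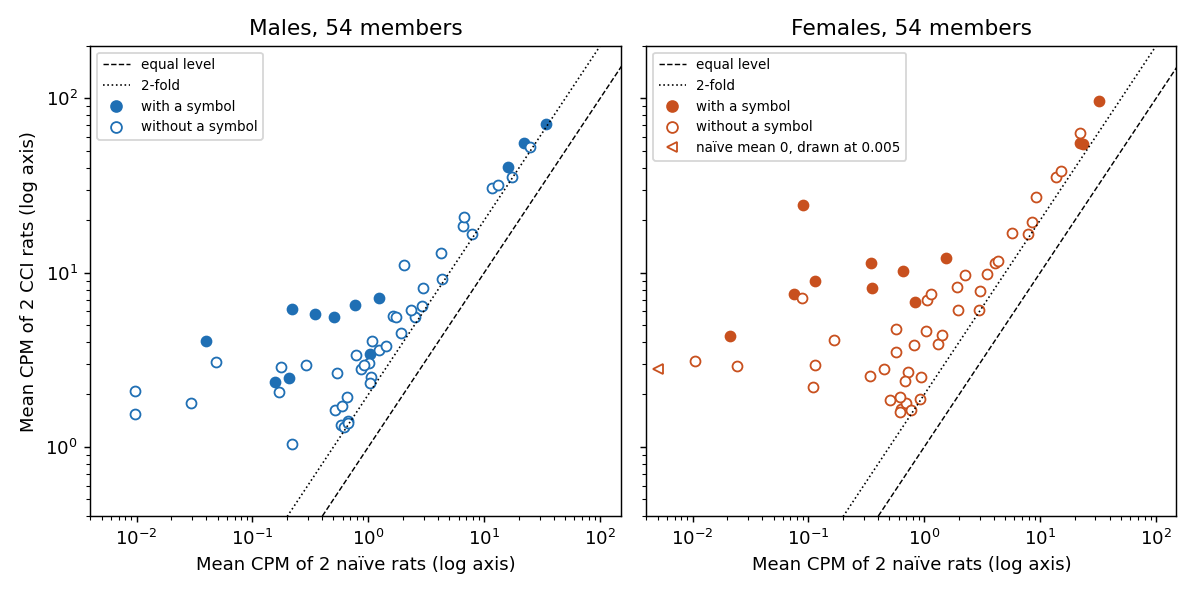
Mean expression of the 54 members in 2 CCI rats (vertical, CPM, log axis) against that in 2 naïve rats (horizontal, CPM, log axis), with males on the left and females on the right; the dashed line marks equal levels and the dotted line a 2-fold increase. The members lie from just above the dotted line to far above it, and those farthest from it have the lowest naïve levels.

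The CCI rats of a sex were close to each other for most members, and the ratios given here do not cover the naïve rats. The ratio of the higher to the lower CCI rat had a median of 1.08 in males and 1.12 in females, and in 48 of 54 members it was under 1.5 in both sexes. The highest ratio was 1.41 in males and 3.93 in females. The condition against overlap used this spread, so it is no independent sign of how steady the members are.

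The rule did not use the order of the sexes, so the members could be compared between them, although the libraries are the ones that chose them. The fold after CCI was the larger one in females for 42 members and in males for 12, and 8148 of the 14200 genes at the minimum level had it in females. The median fold of the members was 3.73 in females and 3.08 in males. With edgeR's normalization factors in place of column totals, 39 of the 54 had the larger change in females (72.2%, against 51.5% of all 16988 genes tested). The median of the difference, the log2FC in females minus that in males, was 0.35 for the members and 0.02 for all genes. Across the plot of the folds in each sex, the members with a symbol spread mainly to the side of the females. The lists that gave the symbols include genes picked for a sex difference, so this spread is no independent sign. The larger fold was in females for 10 of the 12 members with a symbol and for 32 of the 42 without one.

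**Figure D3:**
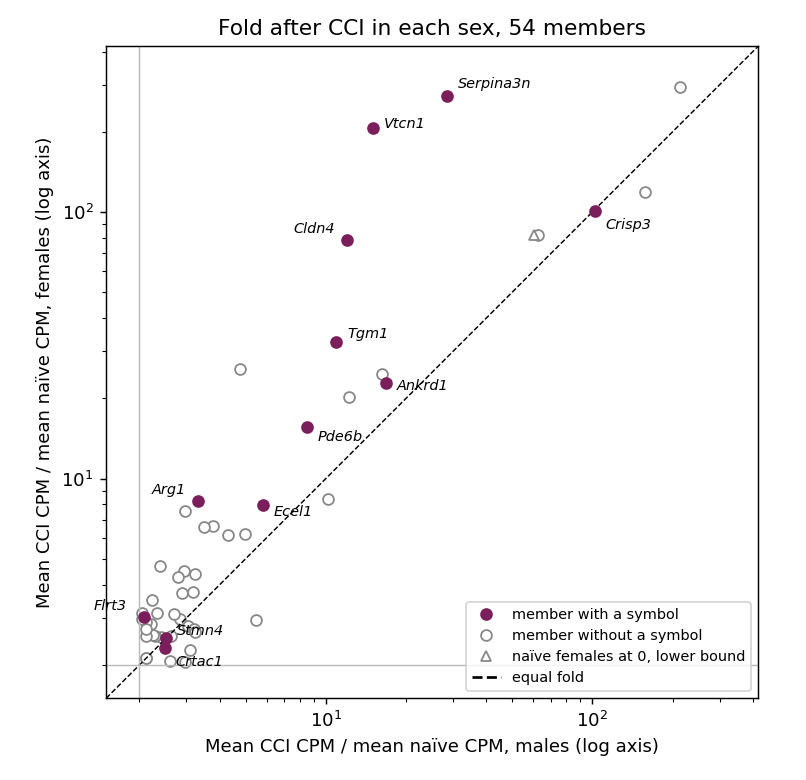
Fold after CCI (mean CPM of CCI rats over mean CPM of naïve rats) of the 54 members in males (horizontal) and females (vertical), both on log axes; filled points have a symbol, the triangle is a lower bound for a member with no count in naïve females, and the dashed line marks equal folds. Points above the line (42 members) had the larger fold in females, among them Serpina3n, Vtcn1, Cldn4 and Tgm1, whereas Crisp3, Stmn4 and Ankrd1 lie near it.

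No single member passed the test of this difference. In an edgeR quasi-likelihood fit of sex, CCI and their interaction over all 8 libraries, adjusted over all genes, 0 of 54 members were called, where 1.04% of all genes were called with the larger change in females and 0.547% with the larger change in males. Without adjustment, 13 members had a p under 0.05 (24.1%, against 24.0% of all genes), and 11 of these had the larger change in females. The smallest adjusted p was that of Flrt3, with an interaction log2FC of 0.48 (SE 0.0974, adjusted p = 0.0579). Next came Tgm1 at 1.53 (SE 0.346, adjusted p = 0.0666), Arg1 at 1.23 (SE 0.295, adjusted p = 0.0722) and Cldn4 at 2.63 (SE 0.639, adjusted p = 0.0740). Serpina3n had a value of 3.17 with an SE of 0.940 (adjusted p = 0.104), and leaving out 1 library at a time moved it between 2.25 and 3.73. For Vtcn1 the value was 3.48 (SE 1.19, adjusted p = 0.137), and it rests on 2 counts in the naïve females and 16 in the naïve males, 14 of these in 1 rat. It was 1.59 without that rat, male naïve replicate 2, and 6.73 without female naïve replicate 1. Without the same male, Cldn4 was at 1.62, and without male naïve replicate 1 at 3.21. The sign was negative and the size small for Crisp3 (-0.09, SE 0.559), Stmn4 (-0.06, SE 0.181) and Crtac1 (-0.17, SE 0.128), and for Crisp3 and Stmn4 it turned with the library left out. DESeq2 called 6 members, all with the larger change in females (Arg1, Vtcn1, Flrt3, Serpina3n, Tgm1 and Cldn4), where it called 4.76% of all genes in that direction and 4.57% in the other. Fits without 1 library at a time were run in edgeR alone, where the number of members called also moved with the library left out.

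Before injury the direction of these genes was split between the sexes, but small differences could not be resolved. Between naïve females and naïve males, 28 members had the higher value in females and 26 in males, and the median log2FC was 0.03. Both naïve females were above both naïve males in 7 members and below in 11. The same held for 22.7% and 38.9% of the genes at the minimum level. Of the members, 23 were under 1 CPM in every naïve library. Their median SE was 0.340 between the naïve sexes, against 0.169 between the CCI sexes. The edgeR test on the 4 naïve libraries called 0 members (over all genes, 0.0177% were called with the higher value in females and 0.053% with that in males), and 5 members had an unadjusted p under 0.05 (9.26%, against 25.6% of all genes). The smallest adjusted p was 0.0969, for ENSRNOG00000042860, which was at 16.2 and 18.3 CPM in the naïve males and 10.3 and 8.02 CPM in the naïve females (log2FC -0.84, SE 0.165). Stmn4 followed with a log2FC of 0.52 (SE 0.125, adjusted p = 0.110). DESeq2 called these 2 members and no other, where it called 1.59% of all genes with the higher value in females and 4.31% with that in males.

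After CCI the members leaned to the females. Both CCI females were above both CCI males in 37 members (68.5%), and both were below in 4, where the same held for 26.1% and 27.6% of the genes at the minimum level. By mean CPM 43 members were higher in CCI females, and 40 to 44 were when each CCI library was left out in turn. In edgeR's test on the 4 CCI libraries, 43 of 54 members had the higher value in females (79.6%, against 50.6% of all genes), and the median log2FC was 0.36 against 0.0028 for all genes. Without adjustment, 30 members had a p under 0.05 (55.6%, against 18.3% of all genes), 27 of them higher in females. The condition against overlap used the spread of the CCI rats, which favours members whose CCI values agree. Shares without overlap between the sexes and shares with a small p are therefore not independent of the choice of members. Markers of some cell types differed between the CCI rats as well. The summed level of 3 mast cell markers was 5.53 to 5.80 CPM in CCI females and 0.740 to 0.861 in CCI males, that of 5 fibroblast markers 3730 to 3745 and 3179 to 3187 CPM, and that of 2 markers of endothelium and pericytes 90.7 to 98.9 and 70.7 to 73.3 CPM. The 2 satellite glial markers were at 96.0 to 128 CPM in CCI females and 63.1 to 65.2 CPM in CCI males. The 9 Schwann cell and myelin markers were at 4853 to 6248 CPM in CCI females and 4198 to 4270 CPM in CCI males. The 2 proliferation markers were at 17.2 to 17.4 CPM and at 12.2 CPM. The sensory neuron, muscle, red blood cell and adipocyte markers were lower in CCI females than in CCI males. The part of these cells in the members' difference between the sexes was not tested.

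The test called 5 members higher in CCI females, where 0.524% of all genes were, and 1 higher in CCI males, where 0.536% of all genes were. Cldn4 was 8.93 ± 2.33 CPM in CCI females and 2.49 ± 0.269 CPM in CCI males (a log2FC of 1.84 with an SE of 0.213, adjusted p = 0.0258). Tgm1 was 11.3 ± 0.239 and 5.55 ± 0.0353 CPM (log2FC 1.03, SE 0.112, adjusted p = 0.0216), and Arg1 was 6.80 ± 0.520 and 3.42 ± 0.0275 CPM (log2FC 0.99, SE 0.143, adjusted p = 0.0454). Ecel1 was 12.2 ± 0.245 and 7.13 ± 0.596 CPM (log2FC 0.78, SE 0.114, adjusted p = 0.0463). The fifth, ENSRNOG00000025998, was at 10.2 and 9.48 CPM in the CCI females and 5.62 and 5.54 CPM in the CCI males (a log2FC of 0.82 with an SE of 0.118, adjusted p = 0.0454), and it was also at 3.41 and 3.51 CPM in naïve females and 2.47 and 2.58 CPM in naïve males. In each of these genes both CCI females were above both CCI males.

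The single member called higher in CCI males was ENSRNOG00000034258. Like ENSRNOG00000025998 and ENSRNOG00000042860, it has no symbol and is named after its values were seen. It was at 11.2 and 11.1 CPM in the CCI males and 3.85 and 3.95 CPM in the CCI females (a log2FC of -1.51 with an SE of 0.122, adjusted p = 0.00793). It was at 1.58 and 2.48 CPM in the naïve males and 1.26 and 1.39 CPM in the naïve females, so its fold was 5.46 in males and 2.94 in females. Flrt3 had an adjusted p of 0.0417 with a log2FC of 0.45 (SE 0.0611), under the log2FC threshold of 0.5. Serpina3n had the largest log2FC, 1.99, but its SE was 0.449 and it did not pass (adjusted p = 0.108). It was 1.07 without female CCI replicate 2, under the 2.07 of Cldn4 in the same fit, and 2.54 without female CCI replicate 1. Crtac1 had a log2FC of -0.02 (SE 0.0886) and changed sign when either male CCI replicate 2 or female CCI replicate 1 was left out. The 6 calls depended on the libraries, with 1 call without female CCI replicate 1 and 0 without female CCI replicate 2, in fits where the lone female is assumed to vary as the males do, and 2 calls in a fit over all 8 libraries. DESeq2 called 12 members higher in CCI females and the same 1 higher in CCI males, where it called 1.25% and 0.907% of all genes.

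**Figure D4:**
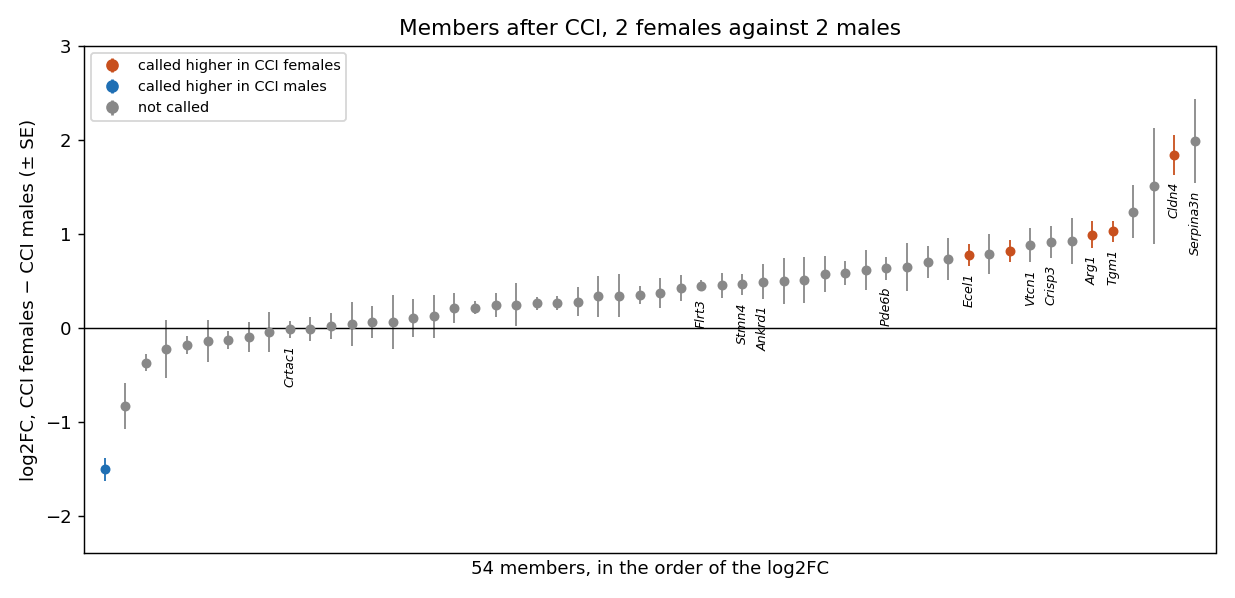
Difference between CCI females and CCI males for the 54 members (log2FC of females minus males, points with bars of ± 1 SE, from edgeR on 4 libraries), in the order of its size; orange points were called higher in females, the blue point higher in males and grey points were not called. Most points lie above 0, with Serpina3n at 1.99 and Cldn4 at 1.84 at the upper end and ENSRNOG00000034258 at -1.51 at the lower end.

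The other genes of the injury response were compared through 7 lists of 266 symbols in all, of which 90 have an identifier and were tested and 9 are members. Because identifiers come with genes that were called on these libraries, the counts are not independent of the change. Of the 90, 70 were called up and 4 down after CCI in males, where 9.05% and 12.5% of all genes were. In females 48 were called up and 1 down, where 3.69% and 2% of all genes were. The median log2FC was 0.92 in males and 0.58 in females, against -0.01 and -0.02 for all genes. The 9 members and the 11 genes set aside by name are among these by the rule itself. Of the other 70 list genes, 50 rose and 4 fell in males, and 28 rose and 1 fell in females. The male count was 0 without male CCI replicate 1, and the female count was 29 without female CCI replicate 2.

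Of the regeneration-associated genes, 25 of 51 were tested, 5 of them members (Stmn4, Flrt3, Ecel1, Ankrd1 and Arg1), and 21 rose in males, 22 in females and 18 in both, with none falling. The 5 members are among those that rose because this contrast chose them. Gap43, the growth cone protein, rose by a log2FC of 0.93 in males (adjusted p = 0.00565) and 1.02 in females (adjusted p = 0.000861), and its fold in CPM, 1.74 in males and 1.95 in females, stayed under the limit of 2. Tubb2b, a tubulin of growing neurons, rose by 1.01 and 1.15. Lifr, a receptor subunit for cytokines of the leukemia inhibitory factor family, rose by 0.95 and 0.70. Socs3, an inhibitor of cytokine signalling, rose in females (1.29, adjusted p = 0.00873) and had a log2FC of 0.02 in males (adjusted p = 0.90), and its interaction log2FC of 1.28 was called (SE 0.220, adjusted p = 0.0483). The other interaction calls of this list were Cebpd, Atf3 and Csf1, all with the larger change in females, and none is a member.

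In the list of proteases, inhibitors and processing enzymes, all 13 tested genes rose in males and 9 in females, and 6 of the 13 are members (Serpina3n, Ecel1, Tgm1, Crisp3, Arg1 and Pde6b). Outside the members, Serpini1, a neuronal protease inhibitor, rose by a log2FC of 1.19 in males and 0.61 in females. Ctsb, the lysosomal cathepsin B, rose by 0.93 in males and had a value of 0.44 in females, under the threshold. In the list for axon growth, guidance and the cytoskeleton, 15 of 18 rose in males, 11 in females and 9 in both, and only Stmn4 and Flrt3 are members. The other lists hold no member, and 11 genes that met the limits, Atf3, Gal, Vip and Reg3b among them, had been set aside by name. Of 6 transcription factors tested out of 35, 1 rose and 2 fell in males and 3 rose in females. Of 22 secreted peptides and granins out of 46, 16 rose and 1 fell in males, and 11 rose and 1 fell in females. Of 11 receptors and cytokine signalling genes out of 42, 9 rose and 1 fell in males and 4 rose in females. Of 19 synaptic and excitability genes out of 35, 16 rose in males and 8 in females.

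Other cell types also differed between the groups. The summed level of 9 Schwann cell and myelin markers was 12461 to 14688 CPM in naïve males and 4198 to 4270 in CCI males, and 8609 to 10064 in naïve females and 4853 to 6248 in CCI females. The 7 red blood cell markers were at 136 and 1481 CPM in the naïve males and at 1344 and 2093 in the naïve females, against 164 to 242 CPM in the CCI rats. The sum of the Schwann cell and myelin markers was thus lower in all CCI rats than in the naïve rats of the same sex. By gene, 8 of the 9 were called down and 1, Ngfr, up in males, where 12.5% and 9.05% of all genes were. In females 3 of the 9 were called down, where 2% of all genes were, and 0 up. In its low level of blood markers, 1 naïve male stood apart from the other naïve rats. The sensory neuron markers were at 6685 to 7886 CPM in naïve males and 10565 to 11024 in CCI males, and at 8420 to 8422 in naïve females and 9028 to 9853 in CCI females. The part of these cell types in the folds of the members was not tested.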

How the data were processed

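RNA of the pooled ipsilateral L4 to L6 DRGs of 8 rats was measured in 4 groups of 2. According to the study's methods, the authors made strand-specific poly(A) libraries, aligned paired reads with HISAT2 to rn6 and counted them per Ensembl gene with featureCounts. The submitters' processing notes also name CASAVA 1.8.2. The deposited values are raw counts, without normalization, of 39489103 to 60818457 per library. All columns of the table were used. Groups and replicate numbers were taken from the sample titles. The rats are separate animals.

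CPM for the choice of members were computed from column totals. Tests used R 4.3.3 and edgeR 4.0.16 (TMM factors 0.952 to 1.07, filterByExpr with a minimum count of 10 and a minimum total of 15, quasi-likelihood F test, Benjamini-Hochberg adjustment over the 16988 genes kept). A gene was called at an adjusted p under 0.05, and for comparisons of 2 groups also with a log2FC beyond 0.5 in size. Each comparison of 2 groups used its own 4 libraries and the interaction all 8. SEs were derived from the log2FC and the root of its F value. The fits were checked on simulated counts. The alternatives were DESeq2 1.42.0, other normalizations, no filter, a fit over all libraries, a replicate block, and fits without each library in turn.

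The members and gene lists were chosen with earlier results of these data known. The rule for naming took members with a symbol that are in a pathway list, among the 10 largest folds, among the 5 highest means or called between the sexes, which covers all 12, the 2 members without a symbol with the largest folds (the smaller of the 2 sexes), and the 3 genes on either side of the fold limit. Symbols came from the study's tables (1961 identifiers). Intervals for folds are exact and cover counting error only, at 95%. Samples were not paired by replicate number in the main fits. The correlation across genes of the difference between replicates 1 and 2 was 0.731 between the male groups but -0.020 between the CCI groups. What the male libraries of the same number share was thus not modelled in the main fits. In fits with both sexes, the replicate block used the same effect for males and females.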

Additional observations from a re-analysis of the deposited data

How the results depend on the processing

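The number of genes doubled in both sexes was 35 at a minimum mean of 2 CPM, 79 at 0.5 CPM, 61 without the condition on overlap and 69 with TMM or DESeq2 scaling, which kept all 54. It was 49 to 93 when 1 library was left out, with 93 without male naïve replicate 2. Members called in the interaction numbered 6 with DESeq2, 4 without a filter on low counts and 0 to 2 with 1 library left out, and DESeq2 gave no adjusted p for 15 members. Between naïve females and males, DESeq2 called 2, a fit over all 8 libraries 3, and leaving out 1 library gave 0 each time. Between CCI females and CCI males, 13 were called with DESeq2, 2 in the fit over all libraries and 0 to 9 with 1 library left out. With the replicate number as a block, 1 member was called between CCI females and males, and 0 in the interaction and between naïve rats. Pathway genes called were 0 to 80 in males and 29 to 51 in females with 1 library left out. Members with the higher mean in CCI females numbered 40 to 44 with 1 library left out (43 with TMM or DESeq2 scaling). These counts by mean were added after seeing the data. Leaving out 1 library turned the sign of the interaction log2FC of Crisp3 (range -0.97 to 1.52) and Stmn4 (-0.21 to 0.0853), and of the CCI log2FC of Crtac1 (-0.10 to 0.0709). The causes were not tested. Counts of 4 or fewer in the naïve libraries limit the folds of the lowest members.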

Other observations

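The columns of both male libraries numbered 1 carry an additional letter in their header that no other column has. Across all genes tested, the differences between replicates 1 and 2 were correlated between the 2 male groups (r = 0.731), while the other pairs of groups gave -0.020 to 0.142. Across the 54 members the correlation for the male groups was 0.074. The labels do not say what the letter stands for.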
